A study of Mus musculus with 6 samples.

Results

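The genes described here are p53 itself, its direct regulators and a set of its established target genes, read from RNA sequencing of mouse liver. Rows of the deposited gene table were taken where the symbol matched a list of 34 names, and all 34 were found among the 22274 genes of the table. All 34 also passed the filter on low counts, which left 13201 genes for testing, and the lowest count of any of the 34 in any library was 54. The 6 livers came from mice of the strain labelled C57. In the Ad-Dyrk1b group 3 livers had been infected with an adenovirus that overexpresses mouse Dyrk1b, a dual-specificity tyrosine-regulated kinase, and in the Ad-EGFP group 3 livers had been infected with a control adenovirus that is named for EGFP. Both groups therefore carried an adenovirus, and no uninfected liver was analysed here. No age, sex, virus dose, time after infection or viral promoter is stated in the labels. Nor do they state whether the 3 samples of a group are from separate mice, so "livers" stands for liver samples throughout. The spread behind each p-value may therefore hold technical variation only.

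p53, the product of Trp53, is a transcription factor that is held at a low level by the ubiquitin ligase Mdm2 and restrained by its relative Mdm4. When DNA is damaged or growth signals are abnormal, p53 is released and switches on genes that stop the cell cycle, start apoptosis, repair DNA or adjust metabolism, and it also switches on Mdm2, which closes a negative feedback loop. Much of this control acts on the p53 protein, so the mRNA of Trp53 need not follow its activity. In liver the pathway is known for its part in the response to injury and for limiting the division of hepatocytes.

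The labels were checked with Dyrk1b, which stood at 62.2, 101 and 96.5 FPKM (fragments per kilobase of transcript, scaled to library size) in Ad-Dyrk1b replicates 1, 2 and 3 and at 3.81, 4.97 and 4.16 FPKM in Ad-EGFP replicates 1, 2 and 3. Total counts per library ranged from 17326516 to 20024888. The hepatocyte markers Alb, Apoa1, Ttr, Hnf4a, Cps1 and Serpina1c were abundant in every library. Their summed level was 31662 to 38534 FPKM in Ad-Dyrk1b and 38814 to 41070 FPKM in Ad-EGFP livers, so the ranges did not overlap. Of the 6, 5 had a log2 fold change below 0, and 0 were called by edgeR or limma-voom (2 lower at an unadjusted p under 0.05). Cps1 alone was called lower by DESeq2, by limma-trend on either FPKM scale and by edgeR with the replicate number as a block.

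Of the 34 genes, 11 were lower in Ad-Dyrk1b livers and 0 were higher (edgeR quasi-likelihood test, adjusted p under 0.05 over all tested genes). Those that fell were the feedback genes Mdm2, Mdm4, Ccng1 and Gtse1, the arrest genes Cdkn1a and Zmat3, the apoptosis genes Phlda3, Bbc3 and Aen, and the repair genes Ercc5 and Polk. Trp53 itself was not called. Among all tested genes 4.81% were called lower and 7.36% higher by the same rule, against 32.4% and 0% of the 34. The 34 genes were chosen with earlier results of these data known, so their shares are not independent evidence of direction. In all, 26 of the 34 had a log2 fold change below 0 and 8 above, with a median of -0.27, and the median over all tested genes was -0.00498. At an unadjusted p under 0.05 there were 15 lower and 3 higher, where 13.5% and 14.9% of all tested genes passed. DESeq2 called 13 lower and 1 higher (5.42% and 8.93% of all tested genes), and limma-voom 12 lower and 0 higher (4.4% and 6.96%). The count of 11 dropped to 6 (2.97% of all genes) without Ad-Dyrk1b replicate 3, to 6 (3.45%) without Ad-EGFP replicate 2 and to 7 (2.2%) without Ad-EGFP replicate 1. The 5 genes that kept their call whichever library was removed were Cdkn1a, Phlda3, Mdm4, Ercc5 and Zmat3. In every one of the 11 called genes all 3 Ad-Dyrk1b libraries lay below all 3 Ad-EGFP libraries, in log2 CPM (counts scaled to library size). The calls rest on the same counts, so this separation is not separate support for them. Over the 34 genes the groups did not overlap in 15 with Ad-Dyrk1b lower and in 4 with Ad-Dyrk1b higher, where 16.7% and 16.8% of all tested genes did so. A lower level in whole liver can mean fewer cells that express a gene or less RNA in each cell, and these cannot be told apart in bulk samples.

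**Figure D1:**
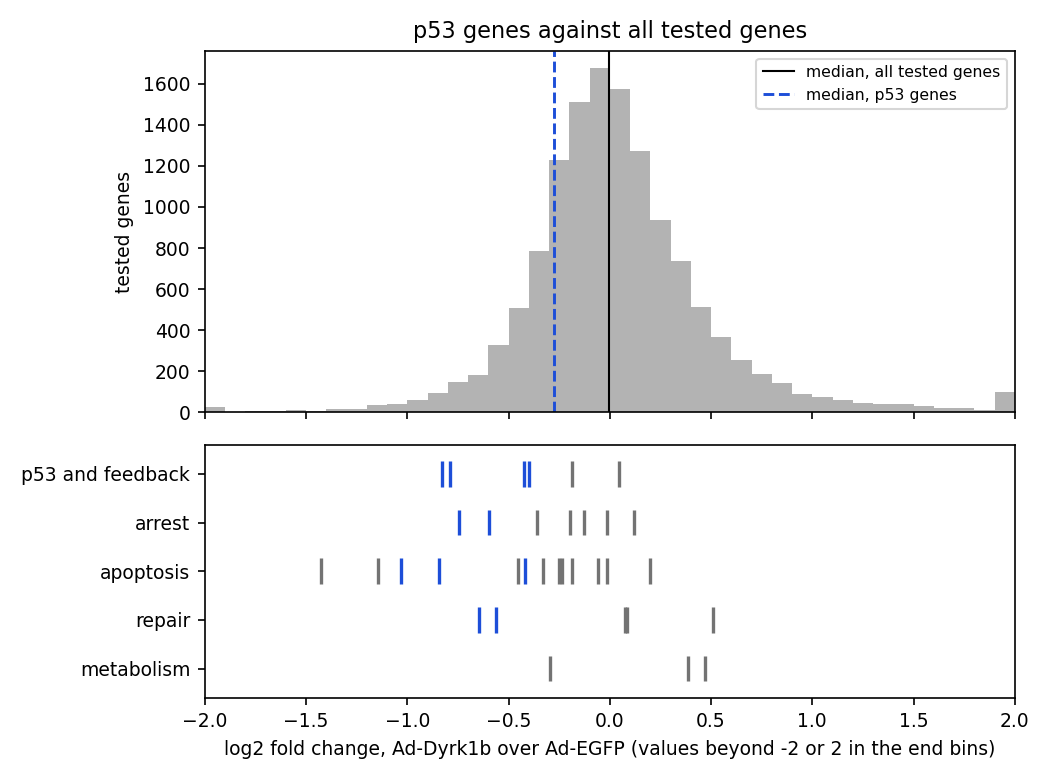
Distribution of the log2 fold change (Ad-Dyrk1b over Ad-EGFP, x axis) over all tested genes (grey bars, number of genes per bin on the y axis), with the 34 p53 genes as ticks by role below (blue for the 11 called lower, grey for the rest). The median of all tested genes is -0.00498 (solid line) and that of the p53 genes is -0.27 (dashed line).

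By role, 4 of 6 members of the group of p53 and its regulators fell, 2 of 7 arrest genes, 3 of 13 apoptosis genes, 2 of 5 repair genes and 0 of 3 metabolic genes. The median log2 fold changes in the same order were -0.41, -0.20, -0.33, 0.07 and 0.39. The classes are small, and their members were assigned by known function, with earlier results of these data known. Several genes could stand in more than 1 class, and differences between classes were not tested. The class means also varied between libraries. With each gene's log2 CPM centred on its own mean, p53 and its regulators averaged -0.18, -0.17 and -0.28 in Ad-Dyrk1b replicates 1, 2 and 3 and 0.39, 0.17 and 0.07 in the matching Ad-EGFP libraries. For the apoptosis genes it was -0.20, -0.14 and -0.39 against 0.21, 0.36 and 0.16. The groups did not overlap in either class, nor in the arrest and metabolic classes. The arrest genes averaged -0.07, -0.03 and -0.34 against 0.09, 0.26 and 0.08, though 4 of the 7 overlapped when taken singly. The metabolic genes lay the other way, with Ad-Dyrk1b higher, at 0.18, 0.04 and 0.05 against -0.16, -0.10 and -0.02. In the repair genes the groups overlapped, with -0.16, -0.02 and 0.02 against 0.01, 0.21 and -0.06.

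**Figure D2:**
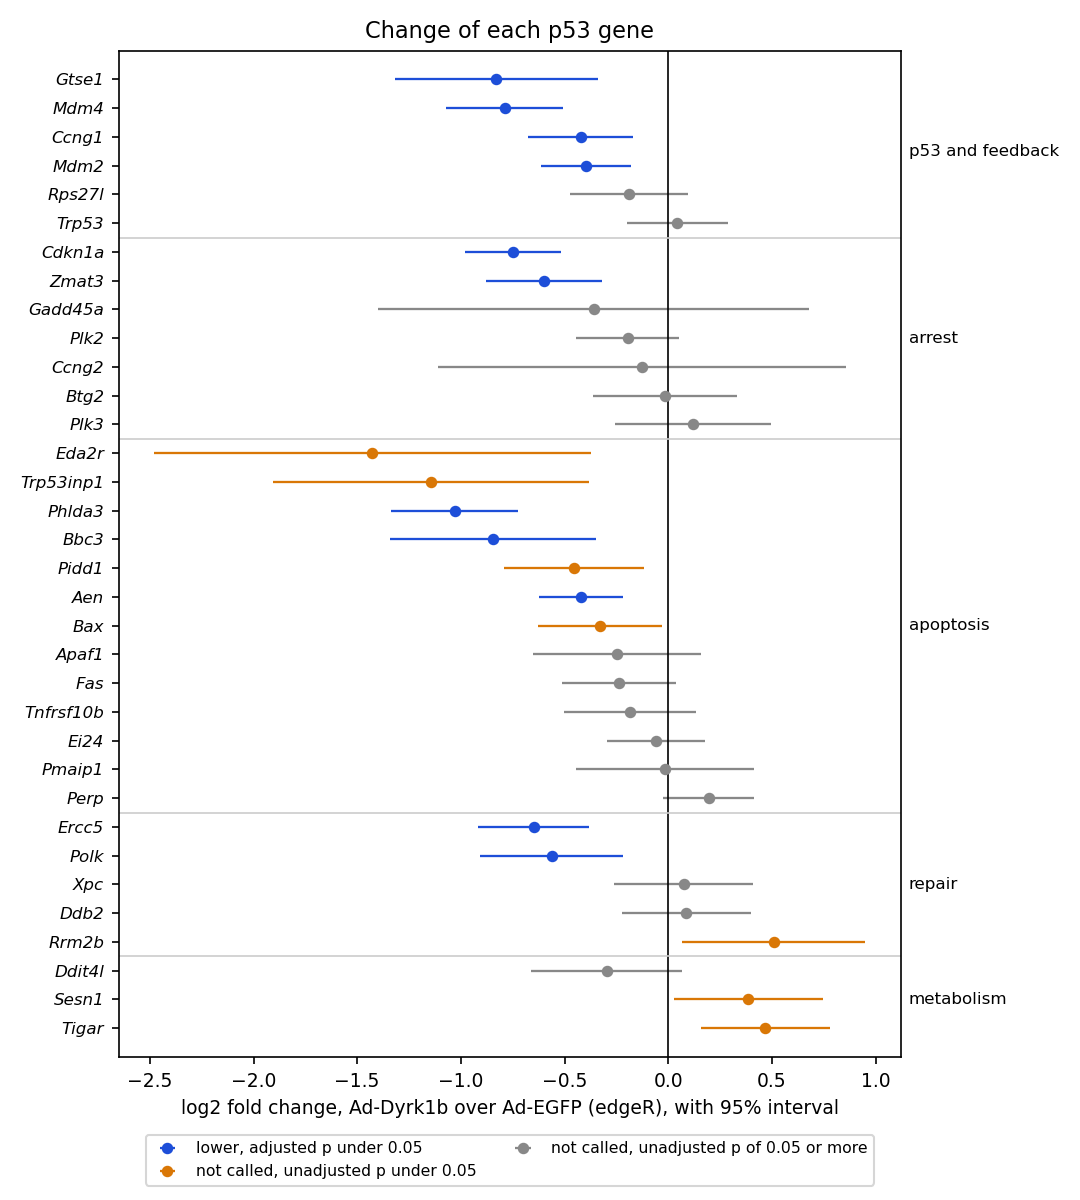
Log2 fold change of each p53 gene (x axis, Ad-Dyrk1b over Ad-EGFP, edgeR) with its 95% interval, grouped by role, with blue for genes called lower, orange for an unadjusted p under 0.05 without a call, and grey for the rest. The 11 called genes lie between -1.03 and -0.40, and Eda2r and Trp53inp1 lie further from 0 with wider intervals.

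Gene coordinates are those of the GENCODE M21 annotation of mm10, matched by gene identifier. Trp53 (chr11:69580359-69591873) was expressed at 17.2, 18.8 and 19.2 FPKM in Ad-Dyrk1b replicates 1, 2 and 3 and at 19.7, 18.4 and 18.7 FPKM in Ad-EGFP replicates 1, 2 and 3. The groups overlapped, and the log2 fold change was 0.04 ± 0.11 (SE; 95% interval -0.20 to 0.29; adjusted p = 0.829). With limma-trend on log2(FPKM + 1) the sign turned, to -0.04. The p53 protein was not measured.

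Mdm2 (chr10:117688875-117710758), the ubiquitin ligase that marks p53 for degradation and is itself a p53 target, stood at 20.8, 18.0 and 18.9 FPKM in Ad-Dyrk1b and at 28.7, 27.1 and 25.1 FPKM in Ad-EGFP replicates 1, 2 and 3. Every Ad-Dyrk1b library was below every Ad-EGFP library, and Mdm2 fell by 0.40 ± 0.10 on the log2 scale (adjusted p = 0.0233), to 75.9% of the control level. Mdm4 (chr1:132959484-133030561), which binds p53 and blocks its transactivation domain, stood at 8.29, 7.40 and 7.62 FPKM against 17.1, 14.8 and 11.5 FPKM. It fell by 0.79 ± 0.13 (adjusted p = 0.00228), to 57.9% of the control level, and among controls the third library was lowest. The fall in Mdm4 kept its call when any 1 library was left out (adjusted p = 0.00154 to 0.0138). For Mdm2, removing Ad-EGFP replicate 3 kept the call (adjusted p = 0.0274). The call ended on removing Ad-Dyrk1b replicate 1, 2 or 3 (adjusted p = 0.0530, 0.0700 and 0.0641) or Ad-EGFP replicate 1 or 2 (adjusted p = 0.101 and 0.0522).

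Ccng1 (chr11:40748552-40755311) encodes cyclin G1, a p53 target that brings a phosphatase to Mdm2. Its level was 40.3, 44.7 and 38.5 FPKM in Ad-Dyrk1b and 58.9, 64.2 and 52.8 FPKM in Ad-EGFP replicates 1, 2 and 3. The groups did not overlap, and Ccng1 fell by 0.42 ± 0.12 (adjusted p = 0.0346). Gtse1 (chr15:85859745-85876573), a protein of the G2 and S phases that moves p53 out of the nucleus, stood at 7.71, 6.05 and 4.78 FPKM against 14.7, 11.5 and 8.53 FPKM and fell by 0.83 ± 0.22 (adjusted p = 0.0384). Gtse1 varied more within each group than Ccng1 did, and the lowest control lay close above the highest Ad-Dyrk1b library. The call for Ccng1 ended on removing Ad-Dyrk1b replicate 1 or 3 (adjusted p = 0.108 and 0.0941) or Ad-EGFP replicate 1 or 2 (adjusted p = 0.107 and 0.0944). That for Gtse1 ended on removing Ad-Dyrk1b replicate 2 or 3 (adjusted p = 0.112 and 0.0795) or Ad-EGFP replicate 1 or 2 (adjusted p = 0.0842 and 0.106).

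Rps27l, a ribosomal protein paralog that binds Mdm2, was the most abundant of the 34 genes in both groups. It stood at 233, 198 and 197 FPKM in Ad-Dyrk1b and at 275, 202 and 279 FPKM in Ad-EGFP replicates 1, 2 and 3. The groups overlapped through Ad-EGFP replicate 2, and the log2 fold change was -0.19 ± 0.13 (adjusted p = 0.374).

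Cdkn1a (chr17:29090976-29100727) encodes p21, the inhibitor of cyclin-dependent kinases through which p53 arrests the cell cycle, and is the best known of its targets. Its exons overlap those of AC167363.2 on the opposite strand, and no strand setting is stated for the counting, so reads of the overlap cannot be assigned. None of the other 10 called genes has such an overlap, but 7 genes that were not called overlap another gene. For Gadd45a, Plk3, Ei24, Ddb2, Rrm2b and Tigar it lies on the opposite strand, so the same doubt holds. Bax overlaps the protein-coding gene Gm45808 on its own strand, which no strand setting would separate. Plk3 and Ddb2 also overlap protein-coding genes. Cdkn1a stood at 79.0, 78.3 and 73.7 FPKM in Ad-Dyrk1b and at 123, 142 and 150 FPKM in Ad-EGFP replicates 1, 2 and 3. The gap between the groups was wide against the spread within them. Cdkn1a fell by 0.75 ± 0.11 (adjusted p = 0.000931), to 59.6% of the control level, and the call held without any 1 library (adjusted p = 0.00171 to 0.0074). Zmat3 (chr3:32334792-32366014), a zinc finger RNA-binding protein induced by p53, stood far lower, at 2.17, 2.01 and 1.66 FPKM against 3.02, 3.74 and 3.06 FPKM. It fell by 0.60 ± 0.13 (adjusted p = 0.0105), and this call also held without any 1 library (adjusted p = 0.0225 to 0.0383).

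The other 5 arrest genes were not called. Gadd45a, a growth arrest and stress gene, stood at 7.32, 2.20 and 2.51 FPKM in Ad-Dyrk1b and at 7.02, 5.19 and 3.87 FPKM in Ad-EGFP replicates 1, 2 and 3. Replicate 1 was the highest library of each group, and the log2 fold change was -0.36 ± 0.45 (95% interval -1.40 to 0.68; adjusted p = 0.648), an interval that holds both a fall and a rise of that size. Btg2, an antiproliferative transcriptional cofactor, had -0.01 ± 0.16 and Plk3, a stress-activated polo-like kinase, had 0.12 ± 0.17. Plk2, its relative, had -0.20 ± 0.12. Ccng2, cyclin G2, is better known as a target of FOXO factors than of p53. It ranged from 6.91 to 13.1 FPKM in Ad-Dyrk1b and from 6.27 to 14.95 FPKM in Ad-EGFP livers, with replicate 2 highest in both groups, and its log2 fold change was -0.13 ± 0.40. The adjusted p of these 4 genes ran from 0.289 to 0.964 (edgeR).

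Promoter sequences are shown for Cdkn1a, Mdm2, Ccng1 and Phlda3, which fell together, and for Trp53, which was not called. They are the 250 bases upstream of a RefSeq transcription start (build GRCm38.p6, 5′ to 3′ on the strand of the gene), with exact matches to the consensus p53 response-element decamer in capitals. Stretches that miss the consensus at 1 or more positions are in lower case and were not counted. For a gene with more than 1 start, the start whose window of 300 bases held the most matches was printed. p53 binds as a tetramer to a pair of such decamers. The decamer is a palindrome, so a match counts for both strands, and it consists of purines, a C, an A or T at each of the central positions, a G and pyrimidines. The Cdkn1a window is chr17:29090729-29090978 (plus strand), the Mdm2 window chr10:117710759-117711008 (minus strand), the Ccng1 window chr11:40755287-40755536 (minus strand), the Phlda3 window chr1:135765835-135766084 (plus strand) and the Trp53 window chr11:69580109-69580358 (plus strand).
Cdkn1a: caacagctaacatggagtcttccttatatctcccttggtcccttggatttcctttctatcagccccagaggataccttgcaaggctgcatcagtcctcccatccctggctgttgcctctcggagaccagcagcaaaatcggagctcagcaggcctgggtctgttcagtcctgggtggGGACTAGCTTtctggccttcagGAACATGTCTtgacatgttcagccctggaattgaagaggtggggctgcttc
Mdm2: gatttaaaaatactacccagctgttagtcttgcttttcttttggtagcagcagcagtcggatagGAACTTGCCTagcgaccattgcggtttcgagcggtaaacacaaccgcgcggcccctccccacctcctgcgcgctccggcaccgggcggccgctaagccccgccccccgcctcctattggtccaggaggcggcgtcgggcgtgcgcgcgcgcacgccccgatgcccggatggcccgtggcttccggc
Ccng1: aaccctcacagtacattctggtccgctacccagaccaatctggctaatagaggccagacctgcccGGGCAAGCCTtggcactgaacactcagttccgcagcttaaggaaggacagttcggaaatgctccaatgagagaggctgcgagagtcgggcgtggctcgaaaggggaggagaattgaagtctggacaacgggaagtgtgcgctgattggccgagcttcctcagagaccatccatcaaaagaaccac
Phlda3: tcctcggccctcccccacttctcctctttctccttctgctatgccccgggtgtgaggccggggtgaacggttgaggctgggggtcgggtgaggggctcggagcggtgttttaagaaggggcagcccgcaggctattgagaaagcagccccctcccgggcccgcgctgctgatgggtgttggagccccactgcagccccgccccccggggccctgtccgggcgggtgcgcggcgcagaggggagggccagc
Trp53: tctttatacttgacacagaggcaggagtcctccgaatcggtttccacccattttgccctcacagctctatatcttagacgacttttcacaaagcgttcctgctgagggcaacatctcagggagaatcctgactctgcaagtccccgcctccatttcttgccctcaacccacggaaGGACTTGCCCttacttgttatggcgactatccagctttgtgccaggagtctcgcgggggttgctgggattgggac
In Cdkn1a a pair of exact matches began at positions -73 and -51, counted from this start. The 10 bases directly after the second match differ from the consensus at 1 position only and are in lower case. In Mdm2, Ccng1 and Trp53 a single exact match began at -186, -185 and -75, and the Phlda3 window held none. In Ccng1 the 10 bases directly before its match differ from the consensus at 1 position only. RefSeq windows of 300 bases (250 before to 50 after a start) were found for 26 of the 34 genes, with 35 windows in all. The genes without a window were Zmat3, Pmaip1, Tnfrsf10b, Trp53inp1, Perp, Ddb2, Xpc and Rrm2b. A decamer was present in 1 or more windows of 13 of the 26 genes, or 50%, and of 9.55% of all 27025 genes in the RefSeq table. By call it was present in 6 of the 10 matched genes that fell and in 7 of the 16 that were not called. A pair of exact decamers with a spacer of up to 13 bases occurred in 1 of the 26 genes, Cdkn1a, and in 0.074% of all genes. A match describes letters in a window and not a bound site, and many p53 response elements lie outside such windows.

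**Figure D3:**
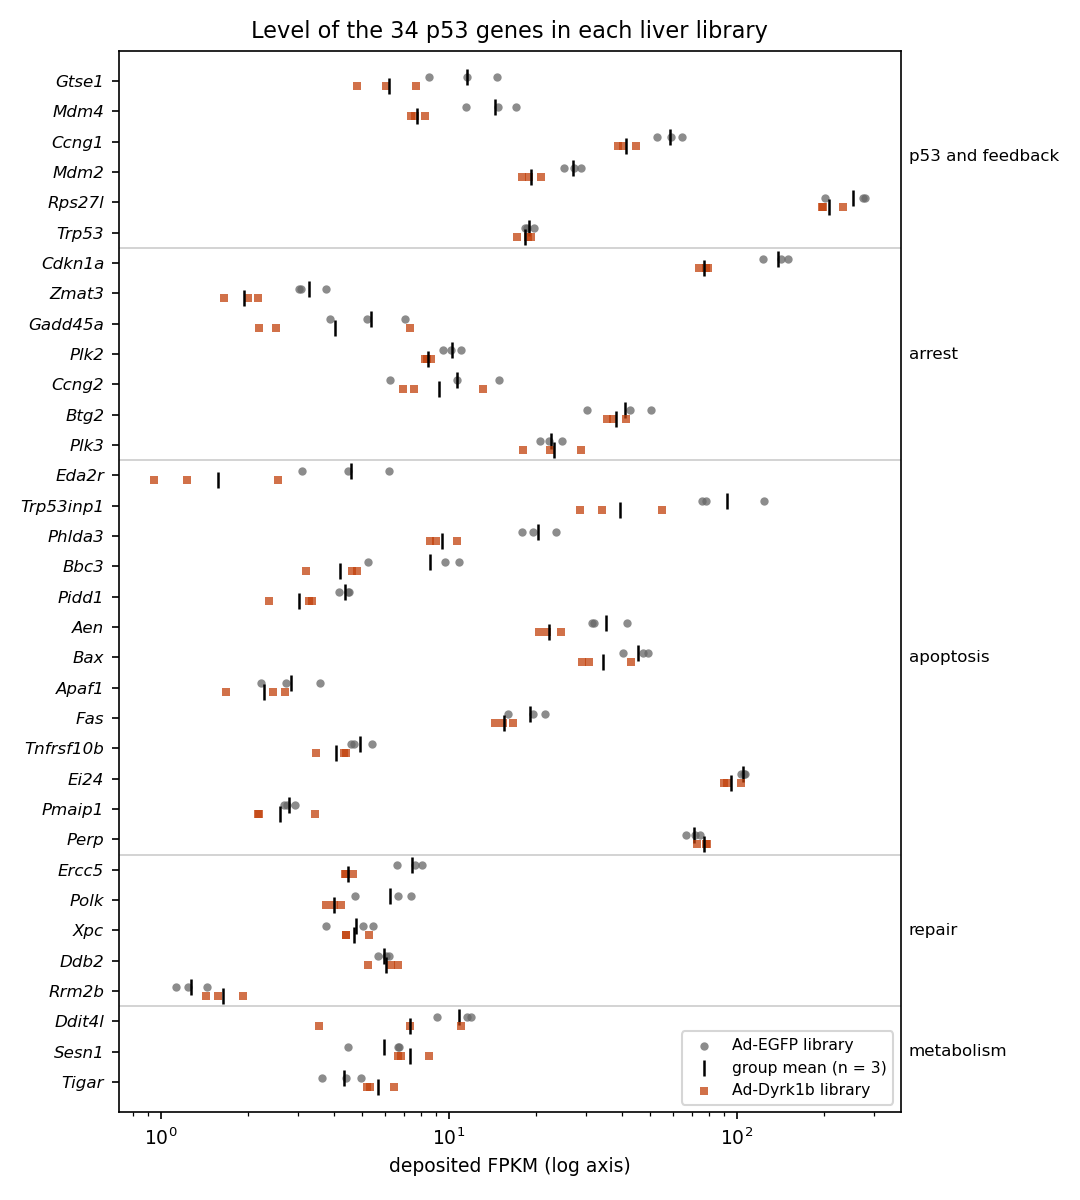
Deposited FPKM (x axis, log scale) of each of the 34 p53 genes in the 3 Ad-EGFP (grey circles) and 3 Ad-Dyrk1b livers (orange squares), with the mean of each group as a black bar. Rps27l, Cdkn1a, Ei24, Trp53inp1 and Perp are the most abundant, and Zmat3, Rrm2b, Apaf1 and Pmaip1 are near the lower end.

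Phlda3 (chr1:135766119-135769136), a pleckstrin homology domain protein that competes with the kinase Akt for membrane lipids, fell most among the called genes. It stood at 10.7, 9.05 and 8.61 FPKM in Ad-Dyrk1b and at 23.6, 19.6 and 18.0 FPKM in Ad-EGFP replicates 1, 2 and 3. The log2 fold change was -1.03 ± 0.14 (adjusted p = 0.000696), or 49.0% of the control level, and it was called without any 1 library (adjusted p = 0.00168 to 0.0038). Aen (chr7:78895854-78911209), an exonuclease that digests DNA in apoptosis, stood at 24.4, 20.6 and 21.9 FPKM against 31.4, 41.6 and 32.0 FPKM. It fell by 0.42 ± 0.09 (adjusted p = 0.0128), and removing Ad-Dyrk1b replicate 2 ended the call (adjusted p = 0.0535). In Ad-EGFP replicate 2 the high FPKM of Aen was not matched by its count, which was 1173 beside 1207 and 1213 in the other control libraries.

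Bbc3 (chr7:16308393-16318205) encodes PUMA, a BH3-only protein that triggers apoptosis at mitochondria. It stood at 4.62, 4.79 and 3.18 FPKM in Ad-Dyrk1b and at 5.22, 10.9 and 9.69 FPKM in Ad-EGFP replicates 1, 2 and 3. The first control library lay close to the Ad-Dyrk1b libraries and the other two controls well above them. Bbc3 fell by 0.84 ± 0.23 (adjusted p = 0.0325). Removing Ad-Dyrk1b replicate 1 or 3 ended the call (adjusted p = 0.0895 and 0.0909) as did removing Ad-EGFP replicate 2 or 3 (adjusted p = 0.106 and 0.0819), and limma-trend on log2(FPKM + 1) (limma adjusted p = 0.0564) or log2(FPKM + 0.1) (limma adjusted p = 0.0521).

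Eda2r and Trp53inp1 had the most negative fold changes of all 34 genes and were not called. Eda2r, a receptor of the TNF receptor family, stood at 1.23, 2.55 and 0.95 FPKM in Ad-Dyrk1b and at 4.48, 6.18 and 3.10 FPKM in Ad-EGFP replicates 1, 2 and 3. Trp53inp1, a nuclear protein that promotes p53 phosphorylation and autophagy, stood at 33.9, 55.1 and 28.5 FPKM against 77.8, 124 and 75.9 FPKM. For both genes the groups did not overlap and replicate 2 was the highest library within each group. The log2 fold changes were -1.43 ± 0.43 for Eda2r (adjusted p = 0.0883) and -1.14 ± 0.32 for Trp53inp1 (adjusted p = 0.0665). Without Ad-Dyrk1b replicate 2 both were called lower, with -2.01 for Eda2r (adjusted p = 0.00359) and -1.51 for Trp53inp1 (adjusted p = 0.00353). Both were also called lower by DESeq2 (DESeq2 adjusted p = 0.0492 and 0.0398) and by limma-voom (limma adjusted p = 0.0180 and 0.0128). An edgeR fit with the replicate number as a block called both lower too (adjusted p = 0.000774 and 0.000201).

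Pidd1, the death domain protein that assembles the caspase-2 platform, stood at 3.28, 2.38 and 3.36 FPKM in Ad-Dyrk1b and at 4.46, 4.51 and 4.14 FPKM in Ad-EGFP replicates 1, 2 and 3. The groups did not overlap, but its log2 fold change of -0.45 ± 0.16 did not pass (adjusted p = 0.0779). Bax, the pore-forming executioner of mitochondrial apoptosis, stood at 43.0, 29.1 and 30.7 FPKM against 47.1, 40.2 and 49.0 FPKM. Ad-Dyrk1b replicate 1 reached the range of the controls, and the log2 fold change was -0.33 ± 0.14 (adjusted p = 0.138). Without that library it was -0.49 and was called (adjusted p = 0.0442).

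The other 6 apoptosis genes had unadjusted p-values over 0.05. The death receptor genes Fas and Tnfrsf10b had log2 fold changes of -0.24 ± 0.13 and -0.19 ± 0.15, and Apaf1, the scaffold of the apoptosome, had -0.25 ± 0.19. Ei24, a protein of the endoplasmic reticulum, had -0.06 ± 0.11, and Pmaip1, which encodes the BH3-only protein NOXA, had -0.01 ± 0.20. The sixth, Perp, is a tetraspan membrane protein of cell junctions. Its Ad-Dyrk1b libraries (78.8, 78.0 and 72.8 FPKM) overlapped the controls (71.7, 74.2 and 66.6 FPKM) in FPKM but not in log2 CPM, with 0.20 ± 0.10 (adjusted p = 0.225).

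The repair genes split. Ercc5 (chr1:44147744-44181260), the endonuclease XPG that cuts 3′ of a lesion in nucleotide excision repair, stood at 4.38, 4.37 and 4.64 FPKM in Ad-Dyrk1b and at 7.61, 8.06 and 6.59 FPKM in Ad-EGFP replicates 1, 2 and 3. It fell by 0.65 ± 0.12 (adjusted p = 0.00538) and was called without any 1 library (adjusted p = 0.00858 to 0.0237). Polk (chr13:96480690-96542579), a translesion DNA polymerase, stood at 3.74, 3.99 and 4.22 FPKM against 6.64, 7.37 and 4.73 FPKM and fell by 0.56 ± 0.16 (adjusted p = 0.0384). Ad-EGFP replicate 3 lay near the Ad-Dyrk1b libraries, and among the fits without 1 library the call for Polk was kept only without that library (adjusted p = 0.0107). The call ended on removing Ad-Dyrk1b replicate 1, 2 or 3 (adjusted p = 0.122, 0.0892 and 0.0633) or Ad-EGFP replicate 1 or 2 (adjusted p = 0.123 and 0.118), and with limma-voom (limma adjusted p = 0.0613).

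Ddb2 and Xpc, which recognise damaged DNA in the same excision pathway as Ercc5, had log2 fold changes of 0.09 ± 0.14 and 0.07 ± 0.15 (adjusted p = 0.731 and 0.789). Their 95% intervals were -0.22 to 0.40 and -0.26 to 0.41. Rrm2b, a subunit of ribonucleotide reductase that supplies nucleotides outside S phase, stood at 1.43, 1.93 and 1.58 FPKM in Ad-Dyrk1b and at 1.24, 1.45 and 1.13 FPKM in Ad-EGFP replicates 1, 2 and 3. Its log2 fold change of 0.51 ± 0.20 was the most positive of the 34 and did not pass (adjusted p = 0.124).

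The metabolic members differed in sign. Tigar, a phosphatase that diverts glucose from glycolysis to the pentose phosphate pathway, stood at 6.44, 5.2 and 5.33 FPKM in Ad-Dyrk1b and at 4.40, 3.62 and 4.95 FPKM in Ad-EGFP replicates 1, 2 and 3. Every Ad-Dyrk1b library was above every control, and the log2 fold change of 0.47 ± 0.14 lay just outside the threshold (adjusted p = 0.0513). With RLE size factors (adjusted p = 0.0483), without the low-count filter (adjusted p = 0.0442), with a filter of 1 CPM (adjusted p = 0.0494) or with DESeq2 (DESeq2 adjusted p = 0.0391), Tigar was called higher. Sesn1, sestrin 1, which restrains mTORC1, stood at 6.82, 6.67 and 8.50 FPKM against 4.45, 6.72 and 6.67 FPKM. The groups overlapped in FPKM but not in log2 CPM, and the estimate was 0.39 ± 0.17 (adjusted p = 0.146).

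Ddit4l, also an inhibitor of mTORC1, was the third metabolic member. It stood at 11.1, 7.30 and 3.55 FPKM in Ad-Dyrk1b and at 11.6, 11.9 and 9.09 FPKM in Ad-EGFP replicates 1, 2 and 3, with counts of 303, 227 and 173 against 290, 296 and 256. The log2 fold change from counts was -0.30 ± 0.17 (adjusted p = 0.265). The low FPKM in Ad-Dyrk1b replicate 3 was not proportional to the count, and the ratio of count to FPKM differed by more than 1.2 times between libraries in 3 of the 34 genes, Ddit4l (1.95 times), Aen (1.36 times) and Bbc3 (1.29 times).

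**Figure D4:**
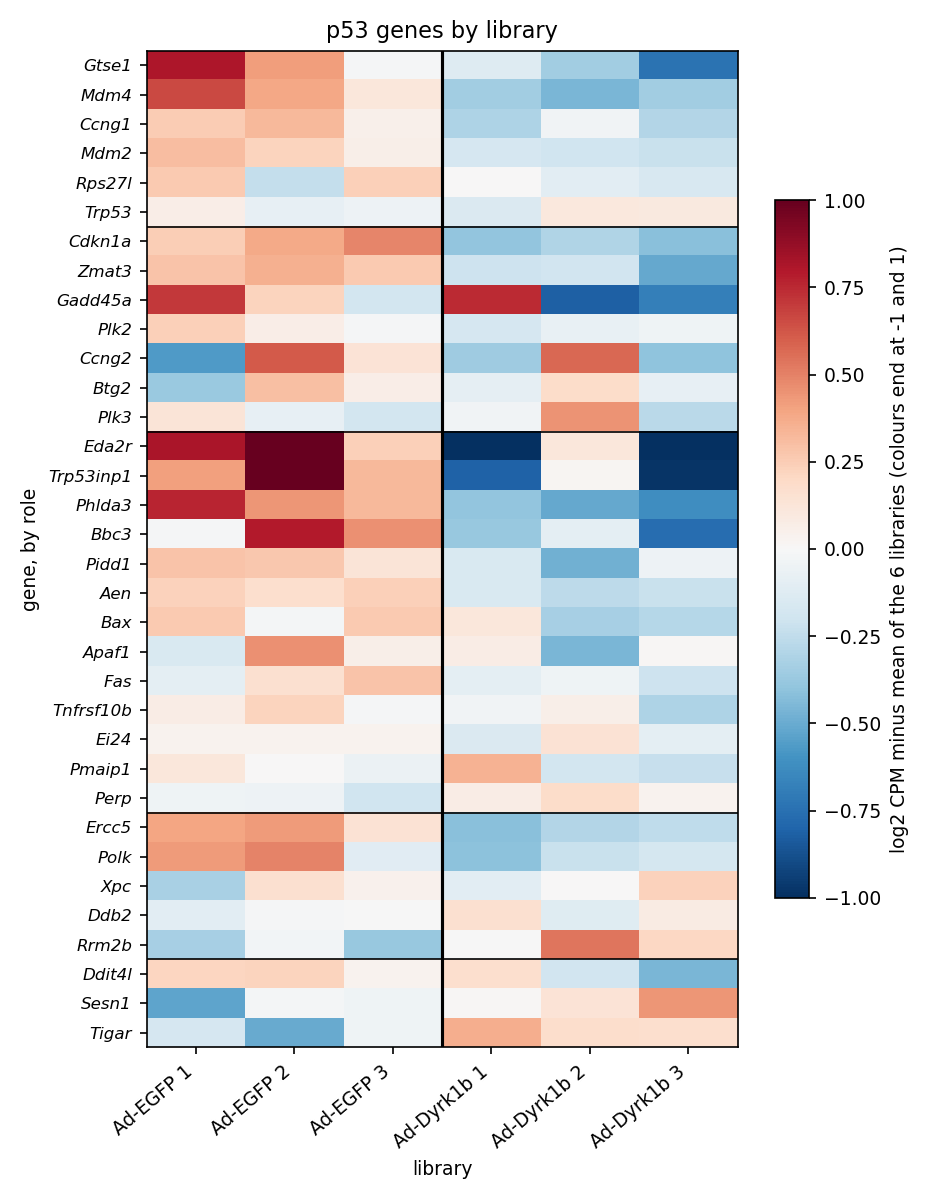
Log2 CPM of each p53 gene (rows, by role) in each library (columns), minus the mean of the gene over the 6 libraries, with red above and blue below. Rows of called genes such as Cdkn1a, Phlda3 and Mdm4 change colour at the line between the groups, while Gadd45a and Ccng2 vary more within groups than between them.

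The members also differed in how much they varied between livers of a group. The pooled standard deviation of log2 CPM within groups had a median of 0.203 over the 34 genes. It was lowest in Aen (0.0476) and highest in Gadd45a (0.691), Eda2r (0.642), Ccng2 (0.571) and Trp53inp1 (0.464). Of the 34 genes, 13 were lowest in Ad-Dyrk1b replicate 3 and 12 were highest in Ad-EGFP replicate 2. For the 11 called genes the highest library was Ad-EGFP replicate 1 in 4, replicate 2 in 5 and replicate 3 in 2.

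The authors' deposited table called 11 of the 34 genes lower and 0 higher at an adjusted p under 0.05, beside 3.57% lower and 6.02% higher over all genes with a count. These 11 genes were the same 11 as in the edgeR fit. The smallest adjusted p in the authors' deposited table among them was 5.16e-09 for Cdkn1a and the largest 0.0280 for Polk.

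Other genes of the pathway were taken from lists of known function. Of 24 further p53 targets 23 were tested, 5 fell and 0 rose (21.7% and 0%, beside 4.81% and 7.36% of all tested genes), with a median of -0.06. Ak1 (adenylate kinase 1), Psrc1 (a microtubule-associated protein, also known as DDA3) and Sesn2 (sestrin 2) had the smallest p, with log2 fold changes of -2.98 ± 0.22, -2.12 ± 0.21 and -0.51 ± 0.14 (adjusted p = 7.31e-06, 6.90e-05 and 0.0306). The call for Sesn2 ended on removing Ad-Dyrk1b replicate 1 or 3 (adjusted p = 0.0900 and 0.0935) or Ad-EGFP replicate 1 or 2 (adjusted p = 0.0823 and 0.0992). The other two, Gls2 (a mitochondrial glutaminase, -0.53 ± 0.14) and Ppm1d (the phosphatase WIP1, -0.57 ± 0.16), are named after their values were seen, and both lost their call on removing replicate 1 or 3 of either group, and Ppm1d also without Ad-EGFP replicate 2 (adjusted p = 0.0548 to 0.131). The falls of Ak1, Psrc1 and Gls2 were known when the list was drawn up, so that count is not independent evidence of direction. The count of 5 was 2 without Ad-Dyrk1b replicate 1, Ad-Dyrk1b replicate 3 or Ad-EGFP replicate 1 and 3 without Ad-EGFP replicate 2 or 3.

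Of 20 damage sensors and p53 regulators, 2 fell and 0 rose (10% and 0%, beside 4.81% and 7.36% of all tested genes), with a median of -0.22. They were Mdc1, a scaffold at DNA breaks (-0.58 ± 0.12, edgeR adjusted p = 0.0102), and Crebbp, an acetyltransferase that acts on p53 (-0.44 ± 0.12, edgeR adjusted p = 0.0265). For Crebbp the call held on removing Ad-EGFP replicate 3 (adjusted p = 0.0355) and ended on removing any of the other 5 libraries (adjusted p = 0.0562 to 0.0919), so the count of 2 became 1. Atr, a damage-sensing kinase, had -0.32 ± 0.13 (adjusted p = 0.124). Of 18 cell cycle genes that the p53, p21 and DREAM complex axis represses, 1 fell and 0 rose (2 and 0 by DESeq2), with a median of -0.32. The share that fell, 5.56%, was near the 4.81% of all tested genes. The gene that fell was Mcm5, a subunit of the replicative helicase (-0.61 ± 0.11, edgeR adjusted p = 0.00467), and the mitotic kinases Cdk1 and Aurkb had -0.52 ± 0.19 and -0.38 ± 0.15 (adjusted p = 0.120 and 0.133).

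The p53 signalling pathway as annotated in the deposited table held 74 genes, of which 21 are among the 34. Of the other 53 genes 47 were tested, 5 fell and 4 rose (10.6% and 8.51%, beside 4.81% and 7.36% of all tested genes), with a median of -0.03. Removing Ad-Dyrk1b replicate 1, 2 or 3 left 3, 4 and 1 lower and 1, 2 and 2 higher, and removing Ad-EGFP replicate 1, 2 or 3 left 1, 2 and 2 lower and 1, 1 and 3 higher. This list was added after the data were seen, and 16 of its genes are also in the lists above. Its smallest p-values belonged to Ccnd3 (cyclin D3), which rose by 0.49 ± 0.10, and to Sesn3 (sestrin 3) and Ccnd1 (cyclin D1), which fell by 0.58 ± 0.13 and 0.56 ± 0.14 (adjusted p = 0.00686, 0.0122 and 0.0245). The call for Ccnd1 ended on removing Ad-Dyrk1b replicate 3 or Ad-EGFP replicate 1 or 3 (adjusted p = 0.069, 0.0629 and 0.0808). Other calls, named after they were seen, included Sesn2, Ppm1d and Gadd45b lower and Igfbp3 and Shisa5 higher.

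Other gene lists were read in the same livers. Over all tested genes edgeR called 7.36% higher, DESeq2 8.93% and limma-voom 6.96%, and 14.9% were higher at an unadjusted p under 0.05 (edgeR). Of 10 interferon-response genes 8 rose, among them Irf7, Oas3 and Oasl2, with a summed level of 267 to 391 FPKM in Ad-Dyrk1b and 179 to 207 FPKM in Ad-EGFP livers. Of 10 T and NK cell markers 9 were tested and 2 rose, Gzmb and Gzma, with sums of 34.7 to 58.0 FPKM against 22.8 to 31.9 FPKM. All 9 had a log2 fold change above 0, and 6 were higher and 0 lower at an unadjusted p under 0.05. DESeq2 called 3 of the 9 higher, and limma-voom 1. Ncr1, a defining marker of NK cells, was not tested and was near 0 in every library, with counts of 6, 0 and 1 in Ad-Dyrk1b and 1, 2 and 3 in Ad-EGFP replicates 1, 2 and 3. Of 7 Kupffer cell and macrophage markers 1 rose, Cd68 (sums of 375.7 to 503 against 242 to 484 FPKM), and of 5 cholangiocyte markers 1 rose, Spp1 (sums of 219 to 300.4 against 138 to 172 FPKM). At an unadjusted p under 0.05, 3 Kupffer cell and macrophage markers and 2 cholangiocyte markers were higher and 0 lower. DESeq2 called 2 and 2 of them higher, and limma-voom 2 and 1. The call for Gzma ended on removing Ad-Dyrk1b replicate 1 or any Ad-EGFP library (adjusted p = 0.0566 to 0.142), and that for Cd68 on removing any library but Ad-EGFP replicate 2 (adjusted p = 0.0528 to 0.119). Of 6 endothelial markers (56.6 to 83.35 against 41.3 to 61.96 FPKM) and 5 stellate cell markers (109 to 172 against 114 to 147 FPKM) 0 were called by edgeR (2 and 1 higher at an unadjusted p under 0.05; DESeq2 and limma-voom each called 1 endothelial marker higher, Lyve1, and 0 stellate markers). Of 6 erythroid markers 0 were called by edgeR, DESeq2 or limma-voom (0 at an unadjusted p under 0.05), and their sum was 5749 FPKM in Ad-Dyrk1b replicate 3 against 822 to 1623 FPKM in the other 5 libraries. The part of these cell types in the levels of the p53 genes was not tested. Without Ad-Dyrk1b replicate 3, 6 of the 34 genes were called lower and 0 higher, where 2.97% of all tested genes were called lower. The count of lower genes was also 6 without Ad-EGFP replicate 2, where the share was 3.45%. With all 6 libraries it was 11, beside 4.81% of all tested genes.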

How the data were processed

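RNA sequencing of 3 Ad-Dyrk1b and 3 Ad-EGFP mouse livers was read from 1 table. Per the file headers, the authors deposited a raw read count and an FPKM value for each gene and library, their mean FPKM per group, a log2 ratio of those means, and a p-value with its adjusted value. The build mm10 and DESeq2 are named in the submitters' processing notes; aligner, counter and strand setting: not given in the sources used here.

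Counts of the 22274 genes were tested with edgeR 4.0.16 (R 4.3.3; TMM, filterByExpr with a minimum count of 10, robust quasi-likelihood test, Benjamini-Hochberg adjustment over 13201 genes, threshold 0.05). Every adjusted p without another tool named is from this fit. Alternatives were RLE size factors, DESeq2 1.42.0, limma 3.58.1 (voom, and limma-trend on log2(FPKM + 1) or log2(FPKM + 0.1)), no filter, a filter of 1 CPM, the replicate number as a block, and leaving out each library. The test was checked on simulated counts, where the share of false calls was above the threshold, so calls near it are less certain. Libraries held 17326516 to 20024888 counts, which sets the counting precision.

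The genes and lists were chosen with earlier results of these data known. Values per library are given for each called gene, each with an unadjusted p under 0.05, and Trp53, Cdkn1a, Mdm2, Ccng1, Bax and Gadd45a; Rps27l, Perp and Ddit4l were added after their values were seen, as were the promoters to print. From other lists up to 3 genes with the smallest p are named, with exceptions stated. Promoters are from RefSeq. One gene called in the annotated pathway is not reported here.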

Additional observations from a re-analysis of the deposited data

How the results depend on the processing

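Only 3 livers per group limit these results, and calls near the threshold moved with the libraries used. Leaving out 1 library at a time gave 6 to 10 p53 genes lower, 612 to 800 genes higher and 294 to 461 lower over all tested genes, 2 to 5 further p53 targets lower, 1 to 2 damage sensors lower and 1 to 2 DREAM genes lower. The annotated pathway had 1 to 4 lower and 1 to 3 higher, and with limma-trend 1 higher on both scales. The medians ranged from -0.25 to -0.13 for arrest genes, -0.45 to -0.27 for apoptosis genes, -0.0551 to 0.10 for repair genes and 0.24 to 0.46 for metabolic genes. The count of p53 genes called higher, 0, became 1 (Tigar) with RLE size factors, DESeq2, no filter or a filter of 1 CPM. With limma-trend on log2(FPKM + 1) and log2(FPKM + 0.1), 556 and 553 genes were higher over all genes, which moved the share of higher calls from 60.5% to 44.2%, and the metabolic median was 0.27 on the first scale. DESeq2 called 2 DREAM genes lower. Signs turned only in genes that were not called. With the same limma-trend fits Trp53 was at -0.0403 and -0.0423, Xpc at -0.00409 and -0.00275 and the stellate marker Dcn at -0.0252 and -0.0257, and with limma-voom Btg2 was at 0.00599. Leaving out 1 library gave -0.18 to 0.15 for Btg2, -0.11 to 0.27 for Plk3, -0.52 to 0.18 for Ccng2, -0.23 to 0.0897 for Pmaip1, -0.0551 to 0.18 for Xpc and -0.18 to 0.23 for Dcn. The cause of these changes was not tested.

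Replicates with the same number had deviations whose correlations were 0.0245, 0.172 and 0.108, all above 0. The labels do not state a pairing, and the main fit did not take the numbers as pairs. With the replicate number as a block, 13 p53 genes were lower (the 11 plus Trp53inp1 and Eda2r) and 1 was higher (Tigar), over all genes 1109 were higher and 774 lower, 5 DREAM genes and 8 of the annotated pathway were lower, and Btg2 was at 0.00494.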
